A study of Mus musculus with 4 samples.

Results

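Actin filaments, the myosin motors that pull on them and the integrin adhesions that tie them to the matrix were followed here as 56 genes in mouse fibroblasts of the established line NIH3T3, with and without induced Ctcfl. The genes were chosen by name for their roles, with earlier results of these data known. Among the 6 classes are contractile filament genes, adhesion adaptors, and factors and regulators of SRF and YAP. The others are targets of SRF and YAP, integrin alpha chains and integrin beta chains. Of the 56 genes, 54 were measured among 19938 named genes, each read from its brightest probe set. Actg1, the gene of cytoplasmic gamma-actin, had only 4 probe sets that also carry the name Actb, and no probe set with a single gene name was listed for Ptk2, the focal adhesion kinase, so both are not analysed here.

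All cells came from a single stable clone, called p19 in the labels, that carried pBI-EGFP-FLAG-mCtcfl and pTA-N, so the control cells held the same integrated constructs. This is a Tet-Off system, in which doxycycline represses the transgene for CTCFL, a testis-expressed paralog of the insulator protein CTCF. Doxycycline at 2 µg/ml was present for the 2 control samples and absent for 48 h for the 2 Ctcfl samples. Effects of the drug, of Ctcfl and of any EGFP made from the construct therefore cannot be told apart. Total RNA of each sample was biotin-labelled and hybridised to an Affymetrix array. Since no label states that the replicates were grown separately, the p-values cover the spread among these 4 arrays, and that spread may be technical.

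Contractile force in a fibroblast is made by non-muscle myosin sliding on actin bundles held together by alpha-actinin and decorated by tropomyosin, caldesmon and calponin. The bundles end at focal adhesions, where talin, kindlin and vinculin link actin to the cytoplasmic tails of integrins, receptors made of an alpha and a beta chain that bind collagen, laminin or fibronectin outside the cell. Separate transcription systems read the state of this machinery. Actin monomers hold back the MRTF coactivators Mkl1 and Mkl2 of the factor SRF, which binds the CArG box, while the Hippo kinases Lats1 and Lats2 hold back YAP and TAZ (Yap1 and Wwtr1), which act through TEAD factors.

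Values below are log2 RMA values, differences are Ctcfl minus control on the log2 scale, and tests are two-sided limma tests with 2 arrays per group. Ctcfl itself read 7.77 and 7.71 on the control arrays and 10.37 and 10.35 on the Ctcfl arrays. Over all genes 9 passed an adjusted p of 0.05, which is 0.0451% of those tested, and 10.7% had an unadjusted p under 0.05. The fibroblast markers fixed for this work were bright, with means from 7.71 to 12.12 for 9 genes such as Col1a1, Col1a2, Vim and Thy1. Epithelial, endothelial and leukocyte markers, 17 genes in all, had means from 3.83 to 6.32, and the 10 skeletal and smooth muscle markers from 4.22 to 7.82. Of these markers 5 had an unadjusted p under 0.05, and none passed after adjustment by limma. They were the epithelial keratin gene Krt8 with a difference of 0.58, the fibroblast genes Pdgfrb, Col3a1 and Pdgfra with -0.56, -0.38 and -0.29, and the smooth muscle gene Myh11 with 0.24. Of the 7 epithelial markers 4 had a lower mean with Ctcfl, as did 7 of the 9 fibroblast markers, and the part of these markers in the results below was not tested. The lower quartile of all probe sets lay at 4.09 to 4.12 on the arrays and the median at 5.20 to 5.24. Detection was not called, so a value near that lower quartile cannot be separated from background.

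No gene of the 54 passed an adjusted p of 0.05 by limma, where the lowest was 0.185. None differed by 1.5-fold, against 0.441% of all genes. In simulated data 6.19% of log2 changes of 0.5 were recovered at that adjusted p, so a change of that size would mostly be missed. In RNA of a whole culture, a change in the share of cells that express a gene and a change in RNA per cell cannot be told apart. At an unadjusted p under 0.05 there were 10, or 18.5% of the 54, against the 10.7% of all genes. Of these, 6 were higher in the Ctcfl arrays (Itga1, Itgb7, Itga3, Vcl, Tead1 and Itgav), against 5.36% of all genes, and 4 were lower (Itgb8, Myh10, Itga6 and Ccn2), against 5.32% of all genes. Of these 10 genes 6 encode integrin chains. Without control replicate 1 the count was 4 (7.41%, against 6.71% of all genes in that fit), and without control replicate 2 it was 5 (9.26%, against 6.67%). Without either Ctcfl replicate it was 6 (11.1%), against 8.34% of all genes without replicate 1 and 7.03% without replicate 2. Over the brightest 13291 genes alone, which leave out Itga1, it was 9 (18.8%), against 15.4%. For 52 of the 54 genes the 95% interval of the difference lay within 1.5-fold in either direction, as it did for 93.7% of all genes, and the exceptions were Itga1 and Itgb8.

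**Figure D1:**
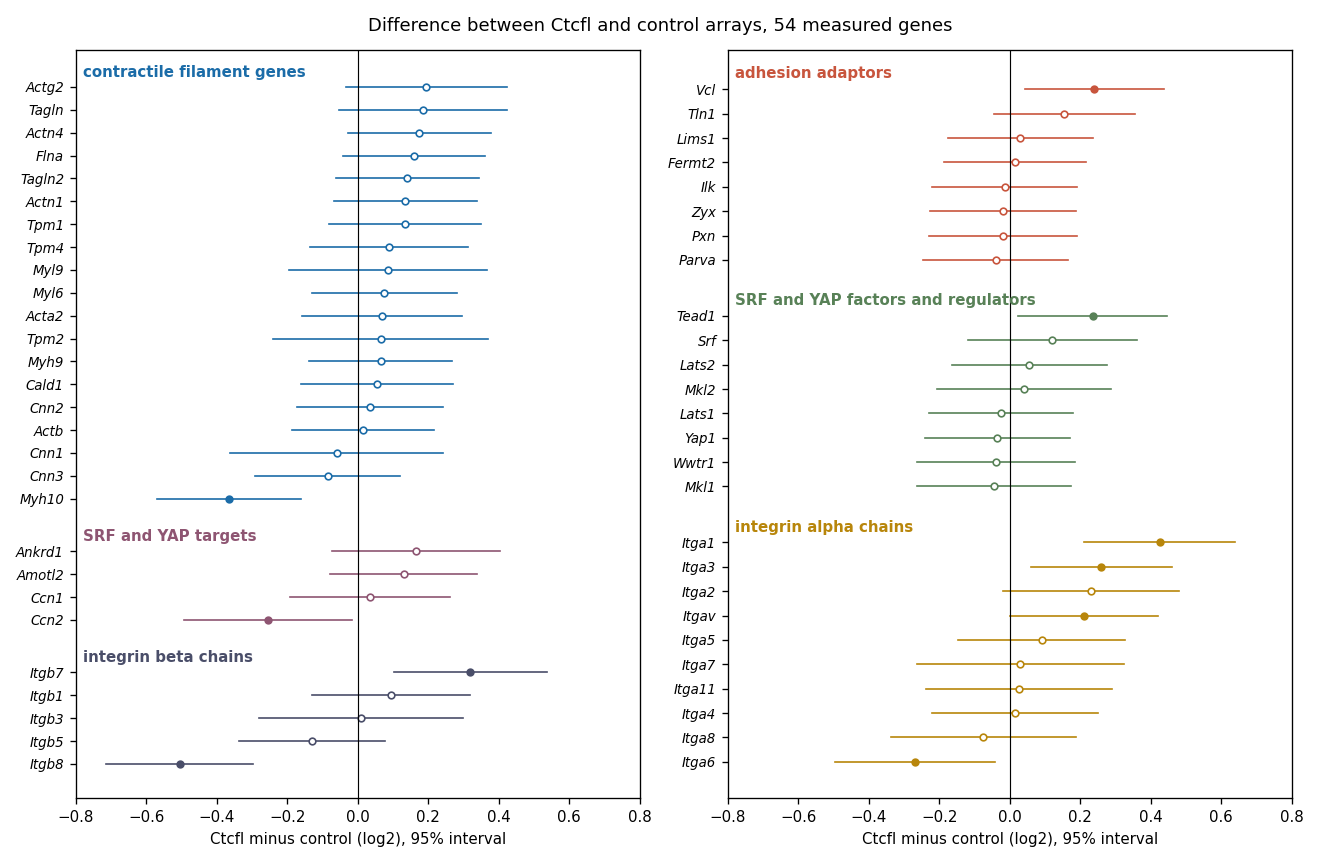
Difference between the 2 Ctcfl and the 2 control arrays for each of the 54 genes on the log2 scale, with the 95% interval from limma as a line. Filled circles mark the 10 genes at an unadjusted p under 0.05, of which Itgb8 lies lowest at -0.51 and Itga1 highest at 0.43.

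The promoters of the genes were searched for the CArG box and for CATTCC, the core of the element bound by TEAD factors, on both strands in the 300 bases from 250 before to 50 after the start site (RefSeq, GRCm38.p6). The CArG box was taken as CC, then 6 bases of A or T, then GG, and other forms of it were not searched. Promoters were held for 44 of the 54 genes. A CArG box was present for 6 of these genes (13.6%), against 1.81% of the 27025 genes with a promoter in the table. Since the genes were chosen by name for their roles, among them SRF factors and targets, this share is a description and not a test. The 6 genes are shown because they include Vcl and Srf, whose values are given with their classes. The capitals mark the CArG box, read in the direction of the gene. The windows lie at chr14:20929148-20929220 (+) for Vcl, chr17:46556175-46556264 (-) for Srf, chr2:156775263-156775352 (+) for Myl9, chr10:128493010-128493099 (-) for Myl6, chr10:79988504-79988593 (+) for Cnn2 and chr14:45530220-45530309 (-) for Fermt2.
Vcl: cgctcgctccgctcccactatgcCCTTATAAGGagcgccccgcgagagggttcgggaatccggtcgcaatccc
Srf: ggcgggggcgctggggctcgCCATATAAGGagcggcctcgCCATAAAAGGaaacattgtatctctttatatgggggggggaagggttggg
Myl9: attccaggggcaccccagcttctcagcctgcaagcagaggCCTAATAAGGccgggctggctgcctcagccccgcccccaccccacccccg
Myl6: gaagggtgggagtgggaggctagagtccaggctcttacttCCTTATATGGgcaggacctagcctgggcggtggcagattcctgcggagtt
Cnn2: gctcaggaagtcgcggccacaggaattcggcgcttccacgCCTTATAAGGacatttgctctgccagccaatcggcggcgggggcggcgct
Fermt2: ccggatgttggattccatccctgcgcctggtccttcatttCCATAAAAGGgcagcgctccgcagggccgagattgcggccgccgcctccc
The differences of these 6 genes were 0.24 for Vcl, 0.12 for Srf, 0.09 for Myl9, 0.08 for Myl6, 0.04 for Cnn2 and 0.02 for Fermt2, and among the 6 only Vcl had an unadjusted p under 0.05. With each array left out in turn, Cnn2, Myl9 and Fermt2 changed sign, and Fermt2 also did with median centring.

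CATTCC or its reverse was present for 16 of the 44 genes (36.4%), against 16.6% of all genes with a promoter. This share too describes genes chosen for their roles and is not a test. The motif was found for all 3 of the listed targets that had a promoter in the table, Ankrd1, Ccn1 and Amotl2. Their windows are shown with the motif in capitals, as GGAATG where it lies on the other strand, at chr19:36119922-36120007 (-) for Ankrd1, chr3:145650043-145650128 (-) for Ccn1 and chr9:102717699-102717784 (+) for Amotl2.
Ankrd1: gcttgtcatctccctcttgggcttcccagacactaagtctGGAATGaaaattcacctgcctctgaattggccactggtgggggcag
Ccn1: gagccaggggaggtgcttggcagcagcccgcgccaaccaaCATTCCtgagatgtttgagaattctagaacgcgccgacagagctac
Amotl2: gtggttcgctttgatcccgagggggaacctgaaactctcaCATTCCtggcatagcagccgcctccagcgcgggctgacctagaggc
The 3 genes had differences of 0.17, 0.04 and 0.13 in that order, and none had an unadjusted p under 0.05. Neither motif was found for any of the 8 integrin alpha chains with a promoter, which include Itga1 and Itga3. Over all genes with a promoter the shares were 1.81% for the CArG box and 16.6% for CATTCC, so 8 genes are too few to show a lower share.

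Contractile filament genes lay close together, most of them slightly higher in the Ctcfl arrays. Of 19 measured genes 16 had a higher mean, as did 49.9% of all genes, and the median difference was 0.08. In 11 of them (57.9%) the 2 groups did not overlap, 9 higher and 2 lower, against 41.1% of all genes in either direction and 20.6% in each. Most of these genes are bright, and of the brightest 6646 genes 52.4% did not overlap, 24.1% higher and 28.3% lower. The combined share of 57.9% is thus near that of bright genes, but the split by direction is not. The share of higher contractile genes, 47.4%, lies above the 24.1% of bright genes. That of lower ones, 10.5%, lies below their 28.3%, and neither gap was tested. The only contractile filament gene at an unadjusted p under 0.05 was lower. Myh10, the heavy chain of non-muscle myosin IIB, read 9.48 and 9.43 on the control arrays and 9.12 and 9.06 on the Ctcfl arrays. Both Ctcfl arrays lay well below both controls, by more than the distance between replicates. The difference was -0.37 (SE 0.08, 1.29-fold lower, unadjusted p = 0.00462, adjusted p = 0.298 by limma), and it ran from -0.40 to -0.34 with each array left out. Its close relative Myh9, the heavy chain of non-muscle myosin IIA, read 11.05 and 10.98 in control and 11.08 on both Ctcfl arrays. That is a difference of 0.07 with an interval from -0.14 to 0.27, so the intervals of the 2 myosins do not overlap, although the difference between them was not tested.

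Among the actins, Actb, the cytoplasmic beta-actin, read 13.68 and 13.64 in control and 13.67 and 13.68 with Ctcfl, at the bright end of the arrays, where saturation was not measured. Acta2, the smooth muscle alpha-actin that marks myofibroblasts, read 10.87 and 10.71 in control and 10.85 and 10.87 with Ctcfl. Its groups overlapped, and the difference of 0.07 had an interval from -0.16 to 0.30. Actg2, the smooth muscle gamma-actin, read 7.01 and 6.91 in control and 7.09 and 7.22 with Ctcfl. Here the groups did not overlap, but the difference of 0.20 (SE 0.09) had an unadjusted p of 0.0817 by limma. Actin genes are near-identical in their coding sequence, and how far probes of one read RNA of another was not tested.

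Proteins that bind along the actin bundles had differences of both signs. Tagln, which encodes the actin bundler transgelin, read 7.32 and 7.17 in control and 7.49 and 7.37 with Ctcfl, and its relative Tagln2 read 8.91 and 8.93 against 9.03 and 9.09. Both were higher on each Ctcfl array, with differences of 0.19 (SE 0.10) and 0.14 (SE 0.08). The calponins, which bind actin and damp myosin activity, did not share a direction. Cnn1, the smooth muscle form, read 4.34 and 4.26 in control and 4.08 and 4.40 with Ctcfl, close to the lower quartile of the arrays. Cnn2 read 10.03 and 9.95 against 10.01 and 10.04, and Cnn3 read 9.55 and 9.51 against 9.48 and 9.41. Only Cnn3 had groups apart, with a difference of -0.09. Cald1, the gene of caldesmon, overlapped at 0.06.

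Cross-linkers of the bundles were higher on both Ctcfl arrays. Actn4, an alpha-actinin, read 11.59 and 11.54 in control and 11.76 and 11.72 with Ctcfl, and Actn1 read 9.99 and 9.95 against 10.08 and 10.13. Flna, the gene of the filament cross-linker filamin A, read 11.47 and 11.43 in control and 11.60 and 11.62 with Ctcfl. Their differences were 0.18 for Actn4, 0.14 for Actn1 and 0.16 for Flna, each with an SE of 0.08 and an unadjusted p from 0.0797 to 0.156 by limma. The tropomyosins, which coil along actin and set which myosins can bind it, were less uniform. Tpm1 read 10.93 and 10.90 in control and 10.99 and 11.11 with Ctcfl, apart by 0.14. Tpm2 read 8.20 and 8.01 against 8.03 and 8.31, and Tpm4 read 10.70 and 10.64 against 10.69 and 10.83. For Tpm2 and Tpm4 the groups overlapped. The myosin light chain genes Myl9 and Myl6 had differences of 0.09 and 0.08. Myl6 was read by 6 probe sets with differences from 0.07 to 0.12, and signal shared with near-identical copies of the gene cannot be told apart, while Myl9 changed sign without Ctcfl replicate 2.

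Among the adhesion adaptors the largest difference belonged to Vcl, higher with Ctcfl. Vcl, which encodes vinculin, the protein that couples talin to actin under load, read 10.07 and 10.06 on the control arrays and 10.30 and 10.31 on the Ctcfl arrays. Within each group the arrays differed by 0.01 and the groups by 0.24 (SE 0.08, interval 0.04 to 0.44, 1.18-fold, unadjusted p = 0.0250, adjusted p = 0.415 by limma). Tln1, the gene of talin, which switches integrins on, read 9.52 and 9.49 against 9.64 and 9.68, also apart, by 0.16 (SE 0.08). The other 6 adaptors had overlapping groups and differences from -0.04 to 0.03. They were the LIM protein genes Zyx and Pxn, the kindlin gene Fermt2, and Ilk, Lims1 and Parva, whose products form the complex of integrin-linked kinase, PINCH and parvin. Of these, Parva had the lowest unadjusted p and read 10.01 and 9.93 in control and 9.93 on both Ctcfl arrays. The intervals of the 6 genes all lay between -0.25 and 0.23. The median of the 8 measured adaptors was 0.00.

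The factors and their regulators had differences from -0.05 to 0.12, apart from Tead1. Yap1 read 8.50 and 8.45 in control and 8.47 and 8.41 with Ctcfl, and Wwtr1 read 8.52 and 8.55 against 8.57 and 8.42. The differences of -0.04 for both had intervals from -0.24 to 0.17 and from -0.26 to 0.18. The MRTF genes overlapped as well: Mkl1 read 6.79 and 6.75 against 6.79 and 6.66, and Mkl2 read 6.90 and 7.06 against 7.09 and 6.95. Srf read 7.64 and 7.69 in control and 7.88 and 7.69 with Ctcfl, where only Ctcfl replicate 1 was high, and its difference of 0.12 became 0.03 without that array. The Hippo kinase genes Lats1 and Lats2 had differences of -0.03 and 0.06. Lats2 read 7.66 and 7.65 in control and 7.64 and 7.78 with Ctcfl, and the groups overlapped for both genes.

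Tead1, the DNA-binding partner of YAP and TAZ, read 9.47 and 9.50 on the control arrays and 9.67 and 9.77 on the Ctcfl arrays. Both Ctcfl arrays were higher, by 0.24 on average (SE 0.09, 1.18-fold, unadjusted p = 0.0341, adjusted p = 0.439 by limma). A second, dimmer probe set of the gene read 8.09 on both control arrays and 8.25 and 8.19 with Ctcfl, a difference of 0.13 in the same direction.

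The 4 listed targets had differences of both signs. Ccn2, the matricellular growth factor also called CTGF, read 9.07 and 8.91 in control and 8.68 and 8.79 with Ctcfl. It was lower on both Ctcfl arrays, with a difference of -0.26 (SE 0.10, 1.19-fold lower, unadjusted p = 0.0400, adjusted p = 0.446 by limma), and the difference ran from -0.34 to -0.18 with each array left out. Its relative Ccn1, also called CYR61, read 10.78 and 10.66 against 10.70 and 10.81, with overlapping groups and an interval from -0.19 to 0.26. Ankrd1, a nuclear ankyrin-repeat protein gene, read 10.74 and 10.72 in control and 10.80 and 10.99 with Ctcfl, and Amotl2, an angiomotin relative that binds and restrains YAP, read 9.26 and 9.25 against 9.34 and 9.43. Both were higher on each Ctcfl array, by 0.17 (SE 0.10) and 0.13 (SE 0.09), with unadjusted p-values of 0.141 and 0.178 by limma. Without Ctcfl replicate 2 the difference of Ankrd1 was 0.07.

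Of the 15 integrin chains, 6 had an unadjusted p under 0.05, which was the case for 10.7% of all genes. Of the 15, 4 were higher at that p (26.7%, against 5.36%) and 2 lower (13.3%, against 5.32%), and the higher ones include the dim Itga1. A higher mean with Ctcfl was found for 11 chains (73.3%, against 49.9% of all genes). In 8 the groups did not overlap (53.3%, against 41.1%), with 5 higher and 3 lower, against 20.6% of all genes in each direction, so the share of lower chains is near the background. The median difference was 0.06 for the 10 alpha chains and 0.01 for the 5 beta chains. Without control replicate 1 these medians were 0.14 and -0.02, without control replicate 2 they were 0.16 and 0.04, without Ctcfl replicate 1 they were 0.07 and 0.16, and without Ctcfl replicate 2 they were 0.07 and -0.09.

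Among the laminin receptors, Itga3 and Itga6 had differences of opposite sign. Itga3, whose chain binds laminins together with the beta chain of Itgb1, read 8.19 on both control arrays and 8.47 and 8.43 on the Ctcfl arrays. It was higher by 0.26 (SE 0.08, 1.20-fold, unadjusted p = 0.0188, adjusted p = 0.392 by limma). Itga6, the other main laminin-binding chain of non-muscle cells, read 9.55 and 9.39 in control and 9.21 and 9.19 with Ctcfl. It was lower on both Ctcfl arrays, with a difference of -0.27 (SE 0.09, 1.21-fold lower, unadjusted p = 0.0268, adjusted p = 0.422 by limma), with the control arrays 0.16 apart. The intervals, 0.06 to 0.46 and -0.50 to -0.04, do not overlap, and the difference between the genes was not tested. Itga7, a laminin-binding chain of muscle, read 4.69 and 5.00 in control and 4.90 and 4.85 with Ctcfl, with overlapping groups.

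The collagen receptor chains were dim. Itga1 read 3.82 and 3.81 on the control arrays, below the lower quartile of the probe sets, and 4.30 and 4.18 on the Ctcfl arrays, just above it. The fitted difference was 0.43 (SE 0.09, unadjusted p = 0.00272, adjusted p = 0.261 by limma), which rests on control values that may be background. Itga2 read 4.23 and 4.12 against 4.50 and 4.31, higher by 0.23 (SE 0.10), and Itga11 read 4.37 and 4.62 against 4.50 and 4.54. Without detection calls, expression of these 3 genes cannot be told from background.

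Among chains that bind fibronectin and vitronectin, Itgav read 9.83 and 9.75 in control and 10.03 and 9.97 with Ctcfl. It was higher on both arrays by 0.21 (SE 0.09, 1.16-fold), and its unadjusted p of 0.0498 by limma (adjusted p = 0.467) lay at the threshold. Itga5, the main fibronectin receptor chain, read 8.42 and 8.23 against 8.41 and 8.42. Only control replicate 2 was low, and without it the difference of 0.09 was -0.01. Itga4 and Itga8 read 3.81 to 4.19 on the 4 arrays, at the lower quartile, with overlapping groups.

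The beta chains held the gene with the largest difference of the 54. Itgb8, whose chain pairs with that of Itgav in a receptor that activates latent TGF-beta, read 5.44 and 5.50 on the control arrays and 5.00 and 4.93 on the Ctcfl arrays. The groups lay 0.51 apart and the replicates at most 0.07 (SE 0.09, interval -0.71 to -0.30, 1.42-fold lower, unadjusted p = 9.36e-04, adjusted p = 0.185 by limma). These values lie around the median of all probe sets. They are also within the range of the epithelial, endothelial and leukocyte marker means, 3.83 to 6.32. Without detection calls, expression of Itgb8 cannot be told from background. Itgb5, another partner of Itgav, read 8.30 and 8.26 in control and 8.19 and 8.11 with Ctcfl, a difference of -0.13 (SE 0.09), while Itgb3 read 5.01 and 5.07 against 4.90 and 5.20 and overlapped. Itgav and these partners thus had differences of both signs.

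Itgb7, a beta chain best known from lymphocytes that home to the gut, read 8.08 and 7.98 in control and 8.39 and 8.31 with Ctcfl. It was higher by 0.32 (SE 0.09, 1.25-fold, unadjusted p = 0.0110, adjusted p = 0.353 by limma). Its known partner chains were dim, with Itga4 at 4.03 to 4.19 and Itgae at 4.61 to 4.74 on the 4 arrays, and the leukocyte marker Ptprc read 4.10 to 4.18. Itgb1, the common partner of most alpha chains, read 11.20 and 11.12 in control and 11.19 and 11.32 with Ctcfl. Its groups overlapped, and the difference of 0.10 had an interval from -0.13 to 0.32.

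**Figure D2:**
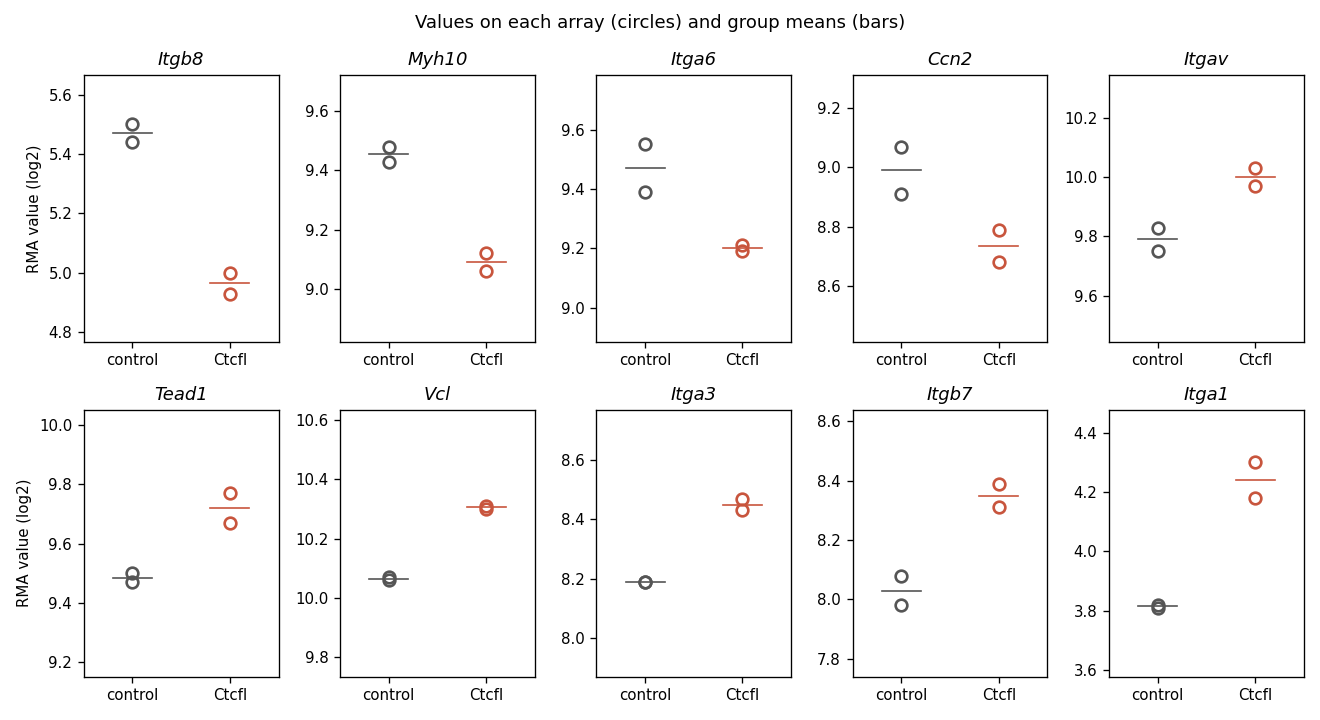
Log2 RMA values of the 10 genes at an unadjusted p under 0.05 on each array, with control in grey and Ctcfl in orange, circles for arrays and bars for group means, each panel spanning the same number of log2 units. In each panel both Ctcfl circles lie on one side of both control circles; for Vcl the circles of a group nearly coincide, at 10.07 and 10.06 against 10.30 and 10.31.

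Across the whole set there was a small shift toward higher values. Of the 54 genes 38 (70.4%) had a higher mean with Ctcfl, against 49.9% of all genes, and the median difference was 0.06, against 0.00 for all genes and -0.01 for the brightest 6646 genes, where 41 of the 54 lie. The count was 35 after quantile normalisation and 34 after median centring, where Actb, Fermt2, Itga4 and Itgb3 changed sign. Between the control arrays, replicate 1 read higher than replicate 2 for 40 of the 54 genes, by a median of 0.04, against 46.8% of all genes. Among contractile filament genes this held for 17 of 19. Taking each gene's distance from its mean over the arrays, the contractile median was -0.0025 on control replicate 1 and -0.0725 on control replicate 2, and 0.0075 and 0.0725 on the Ctcfl arrays. Control replicate 1 and Ctcfl replicate 1 were thus about level in that class. Among the integrin alpha chains the groups lay apart, with medians of -0.0625 and -0.1088 on the control arrays and 0.0463 and 0.0413 on the Ctcfl arrays. The median over the 54 genes was 0.095 without control replicate 1, 0.035 without control replicate 2, 0.0925 without Ctcfl replicate 1 and 0.0325 without Ctcfl replicate 2.

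**Figure D3:**
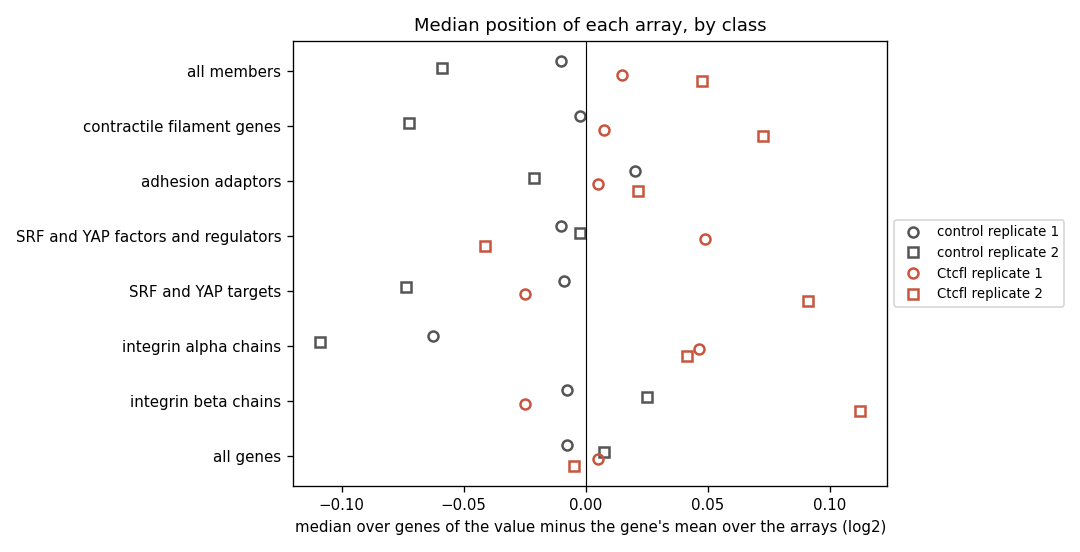
Median over the genes of a class of the value minus that gene's mean over the 4 arrays, on the log2 scale, for control (grey) and Ctcfl (orange) arrays, with circles for replicate 1 and squares for replicate 2. For the contractile filament genes the outer arrays are control replicate 2 at -0.0725 and Ctcfl replicate 2 at 0.0725, and the 2 others lie near 0.

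**Figure D4:**
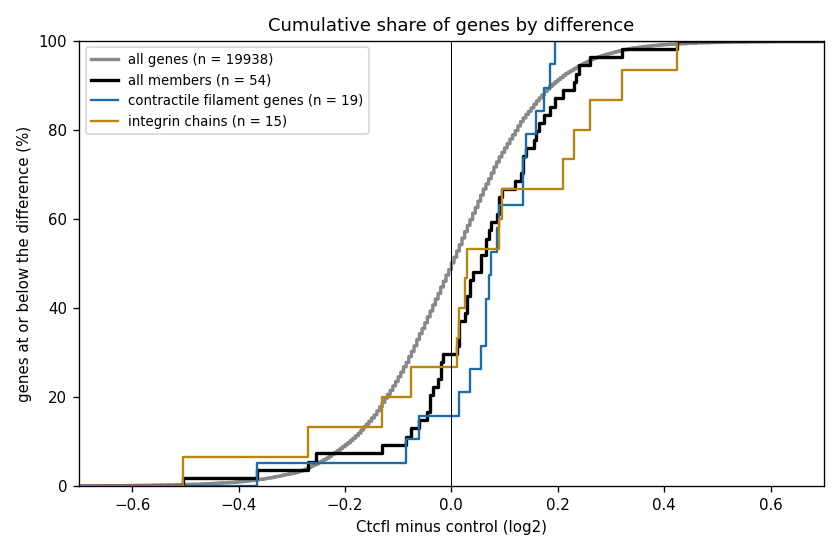
Cumulative share of genes, in percent, at or below a given Ctcfl minus control difference (log2), for all genes (grey), the 54 genes (black), the contractile filament genes (blue) and the integrin chains (ochre). The blue curve is steep around its median of 0.08, with Myh10 alone far to the left, and the ochre curve spreads from -0.51 to 0.43.

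Which genes passed depended on how the spread was estimated. When limma was fitted with an intensity trend and robust variances, so that bright genes were given smaller variances, 4 of the 54 genes (7.41%) passed over all genes, against 2.40% of all genes. Myh10 (adjusted p = 0.00389) and Itga6 (adjusted p = 0.0438) were lower, and Vcl (adjusted p = 0.0295) and Itgb7 (adjusted p = 0.0308) were higher. Itgb8 (adjusted p = 0.0519), Tead1 (adjusted p = 0.0581), Itga3 (adjusted p = 0.0650) and Actn4 (adjusted p = 0.0707) came next in that fit. Of the cell type markers, Pdgfrb (adjusted p = 3.19e-04), Col3a1 (adjusted p = 0.0167) and Pdgfra (adjusted p = 0.0424) were lower and Krt8 (adjusted p = 0.0278) was higher in it. Of the brightest 6646 genes, 370 (5.57%) passed in it.

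Further genes of the same pathways were read from the lists described here, and none of their members passed over all genes by limma without an intensity trend. With the intensity trend and robust variances 5 of them passed. By list these were 2 of 26 SRF and muscle-type targets (7.69%), 2 of 29 Hippo and YAP genes (6.90%) and 1 of 29 adhesion genes (3.45%). In that fit 2.40% of all genes and 5.57% of the brightest 6646 passed, so these shares are not far from that of bright genes. The 5 genes were Csrp1 (adjusted p = 2.92e-04), Vgll3 (adjusted p = 3.53e-04) and Src (adjusted p = 0.00153), which were higher, and Tead2 (adjusted p = 0.0155) and Csrp2 (adjusted p = 0.0311), which were lower.

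Among further SRF and muscle-type targets, 20 of 26 had a higher mean (76.9%, against 49.9% of all genes), with a median of 0.11. An unadjusted p under 0.05 was found for 7 (26.9%, against 10.7%), 5 higher (19.2%, against 5.36%) and 2 lower (7.69%, against 5.32%). The cysteine-rich LIM proteins, which sit on actin bundles with zyxin and alpha-actinin, had differences of opposite sign. Csrp1 read 8.03 and 8.05 in control and 8.63 and 8.57 with Ctcfl (difference 0.56, SE 0.08, adjusted p = 0.152 by limma). Csrp2 read 6.60 and 6.58 against 6.21 and 6.03 (difference -0.47, SE 0.10, adjusted p = 0.259 by limma). The actin-binding protein gene Nexn was lower as well, with a difference of -0.37. All 5 smooth muscle markers, which are already counted in this list, had higher means, by 0.11 to 0.24. Of these markers 4 read at most 5.40 on every array, and 1, Myh11, had an unadjusted p under 0.05.

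Of 29 further Hippo and YAP genes, 15 had a higher mean (51.7%) and 3 an unadjusted p under 0.05 (10.3%), 2 higher and 1 lower, and both shares are near the 49.9% and 10.7% of all genes. Vgll3, a cofactor of TEAD proteins, read 7.62 and 7.72 in control and 8.23 and 8.29 with Ctcfl, a difference of 0.59 (SE 0.09, adjusted p = 0.152 by limma). Tead2 read 7.82 and 7.93 against 7.53 and 7.42, a difference of -0.40 (SE 0.09, adjusted p = 0.298 by limma), of opposite sign to that of Tead1. Fat1, an atypical cadherin that acts upstream of Hippo signalling, was higher by 0.28.

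Of 29 further adhesion and integrin-linked genes, 17 had a higher mean (58.6%, against 49.9% of all genes) and 5 an unadjusted p under 0.05 (17.2%, against 10.7%), 3 higher and 2 lower. Src, the tyrosine kinase that works with focal adhesion kinase, read 7.24 and 7.36 in control and 7.81 and 7.89 with Ctcfl, a difference of 0.55 (SE 0.09, adjusted p = 0.180 by limma). Tln2, the second talin gene, read 6.67 and 6.62 against 6.42 and 6.20, a difference of -0.34, where that of Tln1 was positive. The tensin gene Tns3 had -0.29. Of the 11 other integrin chains, 1 had an unadjusted p under 0.05 (9.09%, near the 10.7% of all genes), the leukocyte chain gene Itgax at -0.30. Next were the platelet chain gene Itga2b at 0.23 and Itgb4 at 0.15, and the 11 chains had means from 3.87 to 5.78.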

How the data were processed

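RNA of 2 control and 2 Ctcfl samples was measured on 1 array each. The deposited log2 values are RMA values that the authors made with Expression Console, per the labels, with the version not given in the sources used here. RMA corrects background, quantile-normalises the arrays and summarises probes, which can shrink differences shared by many genes. Of 35511 probe sets with values, 21789 had 1 gene symbol in the platform annotation of 2016, 1621 had several and 12101 are not listed there. Symbols were checked by gene ID against RefSeq (GRCm38.p6), and Mkl1 and Mkl2 were read as Mrtfa and Mrtfb. The brightest probe set stood for each gene, with no filter on dim genes.

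The comparison used limma 3.58.1 with R 4.3.3 (lmFit, eBayes) over 19938 genes, with Benjamini-Hochberg adjustment. It was tested on simulated data with changes of known size. At an adjusted p under 0.05 it recovered 6.19% of log2 changes of 0.5 and 89.5% of changes of 1. The small number of arrays limits the precision. Alternatives changed the normalisation, the dim-gene filter (the brightest 13291 genes kept), the probe set choice, the variance model (statmod 1.5.0), the block and the arrays used. The members and lists were chosen with earlier results of these data known. Values on every array are given for genes at an unadjusted p under 0.05, the 3 lowest by p in each class and fixed core genes, and each list contributes its 3 lowest by p. One of the lists is not reported here. Other values were chosen after they were seen. Figures used matplotlib 3.10.9 in Python 3.11.15.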

Additional observations from a re-analysis of the deposited data

How the results depend on the processing

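The number of genes that passed over all genes, 9 in the fit as reported, was 9 after quantile normalisation or when probe sets of a gene were averaged, 31 after median centring, 20 over the brightest 13291 genes alone, 479 under the intensity trend and 0 with a replicate block (1468 at an unadjusted p under 0.05), 0 in a fit over all probe sets (1327 genes) and 0 with any array left out (1329 to 1663). Of the 54 genes, 4 passed with the intensity trend and 0 in the other fits of all 4 arrays. With the trend 17 (31.5%) had an unadjusted p under 0.05, against 13.5% of all genes and 25.0% of the brightest 6646. That count was 10 as reported, 7 with the replicate block (13.0%, against 7.36% of all genes) and 4 to 6 with an array left out. The deviations of same-numbered arrays had only a weak negative correlation across genes (r = -0.10). With the crossed pairing as a block, chosen after seeing the data, 0 genes passed (2105 unadjusted) and 9 of the 54 had an unadjusted p under 0.05. The median of the 54 genes ran from 0.0325 to 0.0950 with an array left out. That of the contractile genes ran from 0.04 to 0.125, of integrin alpha chains from 0.07 to 0.16 (0.09 over the brightest 13291 genes, which hold fewer of these chains) and of beta chains from -0.09 to 0.16. Signs changed for 23 of the 54 genes under some setting, each with a reported difference of at most 0.09 in size. Signal over background was not measured, which limits what the dim integrin chains can show.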
